A study of Mus musculus with 22 samples.

Results

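The Ighv5 segments described here are IGHV5-4, IGHV5-6, IGHV5-16 and IGHV5-17, heavy chain V genes of 1 murine family. Their members were taken by name alone: every deposited sequence of the 22 kidney B cell libraries whose first annotated V gene was one of these 4 names. They comprised 828 of 17178 sequences and 736 of 6754 clonotypes, where a clonotype is a unique combination of CDR3 nucleotides, V gene and J gene within a library, and 4 of the 80 V names seen. IGHV5-17 accounted for 340 sequences, IGHV5-4 for 227, IGHV5-6 for 208 and IGHV5-16 for 53.

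The libraries are Igh repertoires of B cells sorted from the kidneys of wild-type C57BL/6 female mice. The labels give an age of 8 to 10 weeks, which is not tied here to inoculation or to removal of the kidneys at day 56. Bladders were inoculated 2 times with PBS (6 mice) or with uropathogenic Escherichia coli (UPEC, 5 mice), and kidneys were taken at day 56. An anti-CD45 antibody given intravenously before death split the cells of each kidney into an extravascular (label-negative) and an intravascular (label-positive) fraction, so each mouse gave 1 library of each kind. No group carried an engineered allele according to the labels, organs were not perfused, and the experiment was performed once.

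Each heavy chain variable domain is assembled in the developing B cell by joining a D to a J segment and then a V to the D-J unit. Terminal transferase adds non-templated (N) nucleotides at both joins, mainly after birth. The Ighv5 genes lie at the end of the V cluster nearest the D segments and are used often in fetal and neonatal B cells. IgM and IgD are made from 1 transcript by alternative splicing, and abundant IgD is a mark of naive follicular B cells, whereas B-1 and marginal zone B cells carry little of it.

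The germline segments of the 4 members are shown so that the members can be compared, since name assignment rests on these bases. In the mouse reference genome GRCm38.p6 (RefSeq), all lie on the minus strand of chromosome 12 and are annotated by GENCODE as V genes (not pseudogenes): IGHV5-4 at chr12:113597448-113597741, IGHV5-6 at chr12:113625508-113625801, IGHV5-16 at chr12:113838528-113838821 and IGHV5-17 at chr12:113859149-113859442. GENCODE lists 21 Ighv5 names there, 10 as genes and 10 as pseudogenes. Counted from the D segments, the members were the 2nd, 3rd, 9th and 10th of the 10 genes. Capitals mark CDR1 and CDR2, as delimited in the deposited annotation.
IGHV5-4: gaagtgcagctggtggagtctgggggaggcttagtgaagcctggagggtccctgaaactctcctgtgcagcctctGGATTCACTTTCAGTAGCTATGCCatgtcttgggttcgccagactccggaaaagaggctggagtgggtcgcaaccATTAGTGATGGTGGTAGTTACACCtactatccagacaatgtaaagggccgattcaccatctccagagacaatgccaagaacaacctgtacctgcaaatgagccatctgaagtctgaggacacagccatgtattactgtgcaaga
IGHV5-6: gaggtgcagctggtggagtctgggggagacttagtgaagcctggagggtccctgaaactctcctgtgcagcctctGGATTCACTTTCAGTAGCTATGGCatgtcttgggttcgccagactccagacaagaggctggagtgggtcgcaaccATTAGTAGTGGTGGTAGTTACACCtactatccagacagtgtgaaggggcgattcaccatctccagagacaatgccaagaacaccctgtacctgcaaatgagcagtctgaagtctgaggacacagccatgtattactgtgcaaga
IGHV5-16: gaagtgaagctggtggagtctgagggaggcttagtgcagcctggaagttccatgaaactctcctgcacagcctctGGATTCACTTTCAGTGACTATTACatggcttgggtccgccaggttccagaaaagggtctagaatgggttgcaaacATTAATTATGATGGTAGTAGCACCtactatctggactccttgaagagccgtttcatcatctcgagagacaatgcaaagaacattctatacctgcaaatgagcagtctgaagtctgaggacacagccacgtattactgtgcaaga
IGHV5-17: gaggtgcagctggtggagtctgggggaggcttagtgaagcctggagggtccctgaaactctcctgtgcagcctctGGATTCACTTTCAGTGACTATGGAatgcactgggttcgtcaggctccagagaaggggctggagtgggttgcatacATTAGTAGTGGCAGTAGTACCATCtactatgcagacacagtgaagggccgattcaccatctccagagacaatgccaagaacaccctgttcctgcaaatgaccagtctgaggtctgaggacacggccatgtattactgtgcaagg

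Over 294 nucleotides, IGHV5-4 and IGHV5-6 differed at 13 positions (95.6% identity). IGHV5-17 shared 90.5% with IGHV5-6 and 88.1% with IGHV5-4. IGHV5-16 was the most distant, at 82.7% to 84.4% identity with the other members. Every one of the 208 IGHV5-6 sequences also carried the name IGHV5-6-1 in the annotation, so these values hold for the pair of names, whereas no IGHV5-4, IGHV5-16 or IGHV5-17 sequence had a further V name.

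The recombination signals that follow the segments, which the RAG recombinase cuts, are shown for comparison between the members. Each consists of a heptamer and a nonamer, in capitals, with a spacer of 23 nucleotides between them (GRCm38.p6). Only the IGHV5-17 segment as printed runs up to its signal. For the other members the GENCODE gene continues a few bases past the printed segment before the signal starts. IGHV5-4 and IGHV5-6 had the same signal throughout, whereas IGHV5-16 and IGHV5-17 shared heptamer and nonamer with each other.
IGHV5-4 signal: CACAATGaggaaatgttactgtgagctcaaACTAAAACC
IGHV5-6 signal: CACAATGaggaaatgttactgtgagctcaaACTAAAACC
IGHV5-16 signal: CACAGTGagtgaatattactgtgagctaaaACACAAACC
IGHV5-17 signal: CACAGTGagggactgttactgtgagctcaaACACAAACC

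Depth differed between groups, and 5 libraries stood apart. Libraries held 750 to 2134 sequences in PBS extravascular samples, 344 to 611 in PBS intravascular, 244 to 1102 in UPEC extravascular and 347 to 938 in UPEC intravascular samples. PBS mouse 1 had the largest extravascular library, with 7 sequences of the 4 segments among 2134, against 65 of 580 intravascular sequences. The extravascular library of UPEC mouse 1 was the smallest, and 58 of its 244 sequences belonged to the 4 segments. Both libraries of UPEC mouse 4 shared 32 clonotypes, against 0 to 9 in the other mice. The extravascular libraries of PBS mouse 1 and UPEC mouse 3 shared 16 clonotypes across mice, against at most 6 in any other pair. Values without a mouse are given for results that leaving it out turned or clearly moved, though not for every mouse and result.

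The first question was whether the extravascular fraction uses the segments as often as the intravascular fraction of the same kidney. In PBS mice all 3 segments abundant enough to be tested had a lower mean share of sequences in the extravascular fraction, but none passed the test after adjustment. Of all 17 V segments tested, 12 had a lower mean share there, so the direction was not particular to Ighv5. IGHV5-6 was lower in 6 of 6 mice, IGHV5-17 in 5 and IGHV5-4 in 4.

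IGHV5-6 took 0.141%, 0.421%, 0.643%, 1.91%, 1.33% and 1.48% of extravascular sequences in PBS mice 1 to 6. The intravascular values of the same mice were 2.41%, 1.496%, 1.61%, 2.63%, 2.03% and 1.80%. All extravascular values were below their partner, and the ranges of the groups overlapped. The means were 0.988% ± 0.689 and 2.00% ± 0.450 (SD, n = 6), -1.01 percentage points apart (two-sided exact Wilcoxon test, p = 0.03125, the smallest that 6 pairs allow, adjusted p = 0.133 over 17 V segments). Of the 17 segments, 3 (17.6%) were lower in all 6 mice, the others being Ighv1-58 and Ighv15-2. With any 1 mouse left out the IGHV5-6 difference lay between -1.15 and -0.755 points, but it was -0.0368 weighted by reads and 0.0670 among sequences of at least 3 reads.

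For IGHV5-17 the extravascular share in PBS mice ran from 0.0937% through a median of 1.67% to 2.13%. The intravascular share ran from 1.45% through 2.60% to 5.17%. They were -1.63 percentage points apart (exact Wilcoxon test, p = 0.09375, adjusted p = 0.177). The difference was -0.94 without the mouse whose removal moved it most, PBS mouse 1, -0.38 weighted by reads and 0.478 with at least 3 reads. IGHV5-4 ran from 0.0469% through 1.03% to 3.37% in extravascular libraries and from 0.291% through 1.62% to 2.59% in intravascular libraries. Its difference of -0.33 points was below the SD of the paired differences (exact Wilcoxon test, p = 0.6875, adjusted p = 0.730) and turned to 0.11 without PBS mouse 1.

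IGHV5-16, the rarest member, met no comparison's minimum of 10 sequences in 3 libraries and was not tested. It was found 14 times in PBS extravascular, 15 times in PBS intravascular, 17 times in UPEC extravascular and 7 times in UPEC intravascular libraries. It was not found in 3 libraries. These were the extravascular library of PBS mouse 6 (0 of 1148 sequences, which allows a share of up to 0.261%), the intravascular library of PBS mouse 3 (0 of 498, up to 0.602%) and that of UPEC mouse 2 (0 of 347, up to 0.865%). These limits cover counting error only.

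Counted by clonotype, the segments had like shares in both fractions of PBS kidneys. IGHV5-6 made up 2.74% ± 1.43 of extravascular and 2.99% ± 0.953 of intravascular clonotypes (SD, n = 6), IGHV5-17 4.41% ± 1.99 and 4.53% ± 2.25, and IGHV5-4 3.08% ± 1.86 and 2.49% ± 1.30. The differences of -0.25, -0.12 and 0.59 percentage points did not pass the test (exact Wilcoxon test, p = 1, 0.84375 and 0.5625). Without PBS mouse 1 they were 0.23, 1.21 and 1.42, and with at least 3 reads 1.74, 2.98 and 2.47, none past the threshold after adjustment. Without PBS mouse 4 that of IGHV5-4 was 0.0633. Of the 17 segments, 1 (5.88%) was lower by clonotype in all 6 mice, and it was no member. Together the 4 segments made up 10.9% ± 4.69 of extravascular and 10.8% ± 4.53 of intravascular clonotypes, against 3.90% ± 2.32 and 7.20% ± 2.76 of sequences. Sequences per clonotype numbered 1.30 for the 4 segments and 4.64 for all other V names in PBS extravascular libraries, and 1.01 and 1.57 in PBS intravascular libraries.

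**Figure D1:**
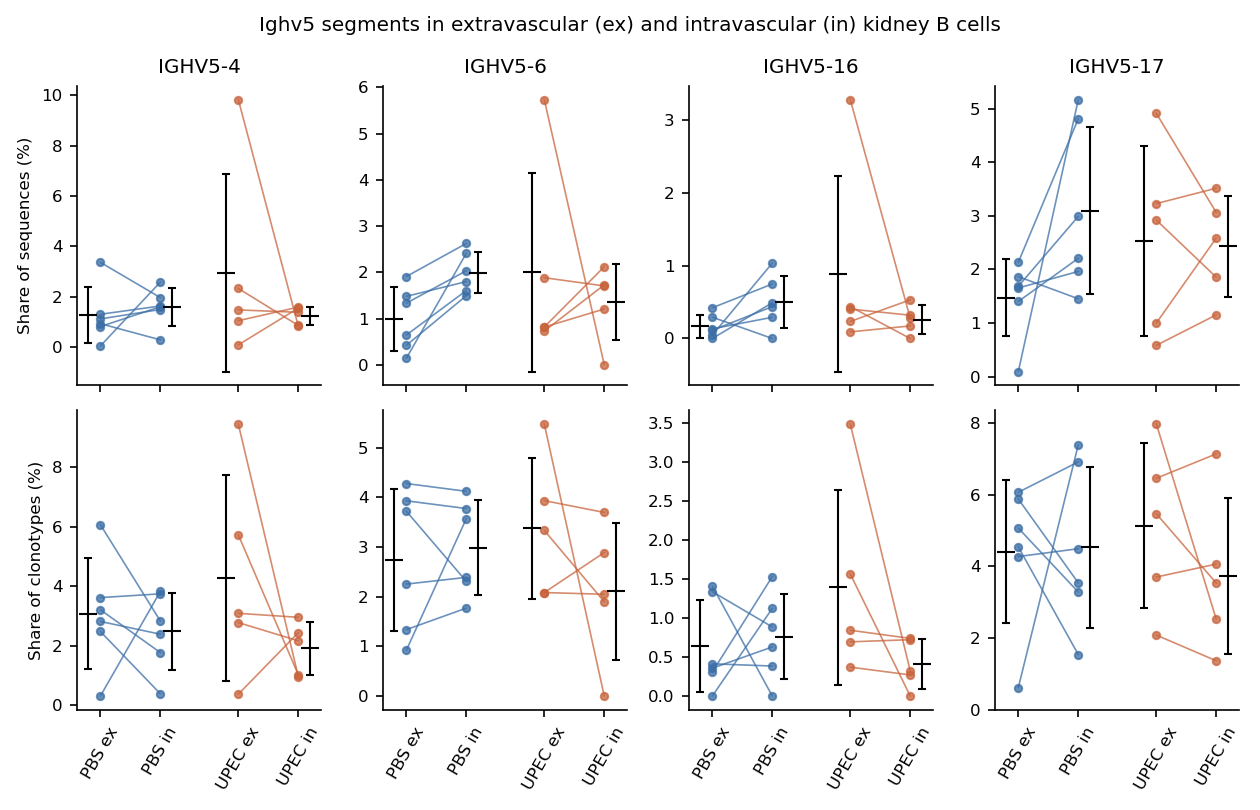
Share of sequences (top) and of clonotypes (bottom), in percent, for each Ighv5 segment in the extravascular (ex) and intravascular (in) library of each mouse. Points are libraries, lines join the libraries of 1 mouse, and black bars are the mean with SD (n = 6 PBS, n = 5 UPEC). IGHV5-6 sequences were lower in the extravascular library of all 6 PBS mice, and the highest UPEC extravascular point of IGHV5-4, at 9.84%, is UPEC mouse 1.

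Across all V segments, limma on log2 shares with the mouse as a block called 6 of 17 (35.3%) between the fractions of PBS kidneys, 4 lower and 2 higher in the extravascular fraction. With shares centred on the median segment it called 3, of which 0 were lower. It called 0 weighted by reads or without PBS mouse 1, 3 or 4, and 2 with variants of 1 nucleotide merged. No member was called either way. Its estimate for IGHV5-6 was a log2 fold change of -1.32 (SE 0.62, limma adjusted p = 0.124), for IGHV5-17 -1.27 (SE 0.75, adjusted p = 0.176) and for IGHV5-4 -0.68 (SE 0.79, adjusted p = 0.468). After median centring these were -0.18, -0.13 and 0.46. Without centring and with any 1 mouse left out, the IGHV5-6 estimate ran from -1.53 to -0.848. That of IGHV5-17 ran from -1.60 to -0.496 and that of IGHV5-4 from -1.13 to 0.13. The exact Wilcoxon test called 0 of 17, with 4 at an unadjusted p below 0.05. Of the other Ighv5 names, 6 names with 116 sequences in all, and of the 6 Ighv2 names (the Q52 family, also close to the D segments) with 41 sequences, none was abundant enough to be tested.

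In UPEC mice no member's share of sequences went the same way in all mice. IGHV5-6 took 5.74%, 0.729%, 0.817%, 1.88% and 0.819% of extravascular sequences in mice 1 to 5, and 0%, 1.73%, 1.21%, 1.71% and 2.12% of intravascular sequences. Mice 1 and 4 were higher in the extravascular library. The intravascular library of mouse 1 held 0 IGHV5-6 among 359 sequences, which allows a share of up to 0.836%. The mean difference of 0.64 points (exact Wilcoxon test, p = 0.8125) became -0.63 without UPEC mouse 1. IGHV5-17 took 4.92%, 0.583%, 0.998%, 3.23% and 2.92% of extravascular sequences and 3.06%, 1.15%, 2.59%, 3.52% and 1.86% of intravascular sequences. It differed by 0.0951 points on average (exact Wilcoxon test, p = 1) and by -0.34 without mouse 1.

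IGHV5-4 took 9.84%, 2.33%, 0.0907%, 1.48% and 1.05% of extravascular sequences in UPEC mice 1 to 5. Its intravascular shares were 0.836%, 0.865%, 1.55%, 1.39% and 1.59%. The mean difference of 1.71 points (exact Wilcoxon test, adjusted p = 0.817) became -0.11 without mouse 1. By clonotype all 3 had higher means in the extravascular fraction, by 2.37 points for IGHV5-4 and 1.28 for IGHV5-6, each in 4 of 5 mice, and by 1.41 for IGHV5-17, in 3 of 5 (exact Wilcoxon test, p = 0.3125 for each, adjusted p = 0.483). Without mouse 1 these were 0.85, 0.23 and 1.28, and without mouse 5 that of IGHV5-17 was 0.403. With 5 pairs no p below 0.0625 can be reached. Here 3 of 17 segments (17.6%) were lower in all 5 mice by sequence and 2 (11.8%) by clonotype, with no member among them. limma called 0 of 17 (0%), with 3 at an unadjusted p below 0.05, and the signed-rank test called 0, with 0 below 0.05.

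Whether bladder challenge changed the use of the segments was asked within each fraction. Extravascular shares were higher in UPEC than in PBS mice on average, by 1.69 points for IGHV5-4, 1.06 for IGHV5-17 and 1.01 for IGHV5-6. None of these differences passed the test (exact Mann-Whitney U test, p = 0.429 for each, adjusted p = 0.729 over 17 segments). Without UPEC mouse 1 they were -0.0276 for IGHV5-4, 0.461 for IGHV5-17 and 0.0739 for IGHV5-6. Intravascular mean shares were lower in UPEC mice, by -0.35, -0.67 and -0.64 points (exact Mann-Whitney U test, p = 0.177, 0.662 and 0.247, adjusted p = 0.576, 0.843 and 0.576 over 14 segments). Without PBS mouse 1 the values of IGHV5-4 and IGHV5-17 were -0.154 and -0.251. Without PBS mouse 5 they were -0.613 and -0.995 (exact Mann-Whitney U test, adjusted p = 0.444 and 0.654). Without UPEC mouse 1 that of IGHV5-6 was -0.305. limma called 0 of 17 (0%) and 0 of 14 (0%) segments, each with 1 at an unadjusted p below 0.05, and the Mann-Whitney test called 0, with 0 below 0.05. The change of the compartment difference with challenge did not pass either (exact permutation test, p = 0.333 for IGHV5-4, 0.136 for IGHV5-17 and 0.139 for IGHV5-6).

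The log2 ratio of extravascular to intravascular share of IGHV5-6, over the 11 mice, was most like that of IGHV5-4. Their root mean square difference was 1.73, followed by Ighv13-2 at 1.93 and IGHV5-17 at 1.98. The intravascular IGHV5-6 count of UPEC mouse 1 was 0, so its ratio there, and with it these distances, are not exact. For the 4 segments together the nearest other name was Ighv3-6, at 1.54. The ratios share libraries and depth, and the distances are descriptions.

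The isotype of the segments' transcripts differed from that of the pooled other V names of the same library. Each deposited sequence identifier holds reads in 9 isotype fields. Field 1 is named Igha; the later names are cut off, so that field 2 is here taken as Ighd and field 9 as Ighm from the alphabetical order of the constant genes, an order that the files do not state. Of the 828 sequences, 454 had field 9 reads, 349 had field 2 reads, 18 had field 1 reads and 7 had reads in other fields. No member sequence had reads in more than 1 field. Among all other sequences, 1029 of 16350 had field 2 and 14909 had field 9 reads.

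Field 2 was found in 55.0% of IGHV5-17 sequences (187 of 340), 50.9% of IGHV5-16 (27 of 53), 37.0% of IGHV5-4 (84 of 227) and 24.5% of IGHV5-6 (51 of 208). Among the 28 V names with at least 50 sequences, these were ranks 1, 2, 4 and 10. The other 24 names had a median of 8.60% and ranged from 0% for Ighv1-48 to 38.1% for Ighv1-64. IGHV5-4 and IGHV5-6, the pair most alike in sequence, ranked 4 and 10. The 6 other Ighv5 names together had field 2 in 43 of 116 sequences (37.1%), so that a high share was not particular to the 4 segments. By fraction, among V names with at least 20 sequences there, IGHV5-17 was at 48.3%, IGHV5-16 at 41.9%, IGHV5-4 at 32.6% and IGHV5-6 at 18.6% of extravascular sequences, ranks 1, 3, 5 and 12 of 31. In the intravascular fraction IGHV5-16 was at 63.6%, IGHV5-17 at 62.3%, IGHV5-4 at 44.6% and IGHV5-6 at 31.6%, ranks 1, 2, 6 and 11 of 25.

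**Figure D2:**
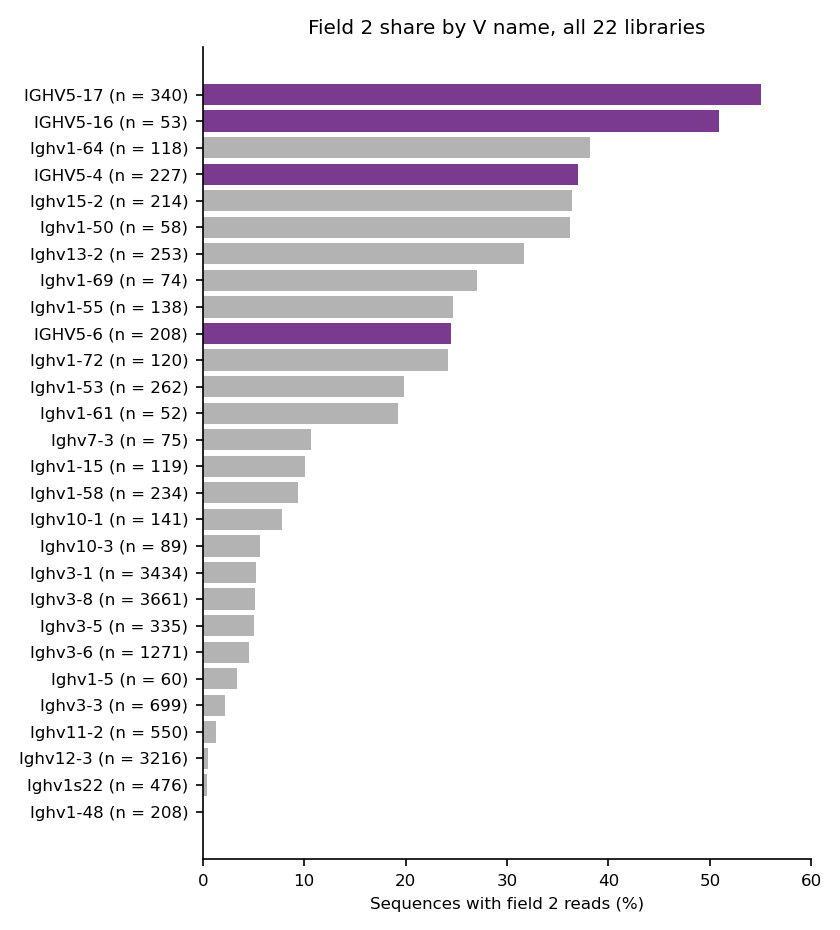
Percent of sequences with field 2 reads for the 28 V names with at least 50 sequences, over all 22 libraries. Purple bars are the 4 Ighv5 segments and grey bars the other names, with the number of sequences beside each name. IGHV5-17 at 55.0% and IGHV5-16 at 50.9% are the longest bars, and Ighv1-48 is at 0%.

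In these comparisons Ighv5 clonotypes are those of the 4 segments, and the other clonotypes include 106 of the 6 other Ighv5 names. Library by library, more Ighv5 clonotypes than other clonotypes carried field 2. In extravascular libraries the share was 39.7% ± 13.4 of Ighv5 clonotypes and 13.5% ± 7.93 of the others (SD, n = 11), a difference of 26.2 percentage points. In intravascular libraries it was 54.1% ± 11.2 and 18.0% ± 3.37, a difference of 36.1 points. The Ighv5 share was higher in 11 of 11 libraries of each fraction (two-sided exact Wilcoxon test, p = 0.000977, the smallest that 11 pairs allow, adjusted p = 0.00419 over 30 tests). Field 9 went the other way, with differences of -22.1 and -39.1 points, again in 11 of 11 libraries each (adjusted p = 0.00419 in the exact test). It largely mirrors field 2 and is no separate result, since each member sequence had reads in 1 field and most clonotypes held 1 sequence. The difference in field 2 was 25.5 and 37.0 points among clonotypes of 1 sequence. Against other clonotypes without Ighv3, Ighv11 and Ighv12 names, which dominate these libraries, it was 19.5 and 30.4 points, in 11 of 11 libraries each. For field 9 it was then -11.5, in 9 of 11 libraries, and -30.2 points, in 11 of 11. Among sequences of at least 3 reads, which left 6 intravascular libraries, the intravascular differences were 26.0 and -31.8 points, each in 5 of 6, and no longer passed (exact Wilcoxon test, adjusted p = 0.256 and 0.1875).

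Within PBS mice, fewer Ighv5 clonotypes of the extravascular than of the intravascular fraction carried field 2. The extravascular shares were 14.3%, 47.7%, 31.7%, 32.6%, 22.2% and 48.6% in mice 1 to 6, and the intravascular shares 45.3%, 74.1%, 48.1%, 55.6%, 66.7% and 58.3%. Every mouse was lower in the extravascular fraction, although the ranges of the groups met between 45.3% and 48.6%. The means of 32.9% ± 13.6 and 58.0% ± 10.9 (SD, n = 6) differed by -25.1 points (exact Wilcoxon test, p = 0.03125, adjusted p = 0.234 over 15 measures), which did not pass. Field 9, which largely mirrors field 2, differed by 27.3 points, more in each of 6 mice (exact Wilcoxon test, p = 0.03125, adjusted p = 0.234). The other clonotypes moved alike: field 2 was in 9.56% ± 5.45 of them in extravascular and 19.9% ± 3.15 in intravascular PBS libraries (SD, n = 6), so that the direction was not particular to Ighv5.

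In UPEC mice the fractions had like field 2 shares. The extravascular values were 45.8%, 45.5%, 38.1%, 58.8% and 51.3% in mice 1 to 5, and the intravascular values 60.0%, 46.2%, 37.5%, 42.4% and 60.9%. The mean difference was -1.48 points (exact Wilcoxon test, p = 0.8125), and it was 1.69 without mouse 1, 0.54 without mouse 5 and -5.96 without mouse 4. The compartment difference was 23.7 points less negative in UPEC than in PBS mice. This had an unadjusted p of 0.00866 in the exact permutation test and an adjusted p of 0.119 over 15 measures, so it did not pass. For the other clonotypes the compartment difference went from -10.3 to 2.48 points, a change of 12.8. Without UPEC mouse 4, whose libraries share clonotypes, the change was 19.2 points (exact permutation test, p = 0.0238, adjusted p = 0.304). More IgD-bearing cells in a fraction and more Ighd transcript per cell cannot be told apart in such bulk libraries.

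**Figure D3:**
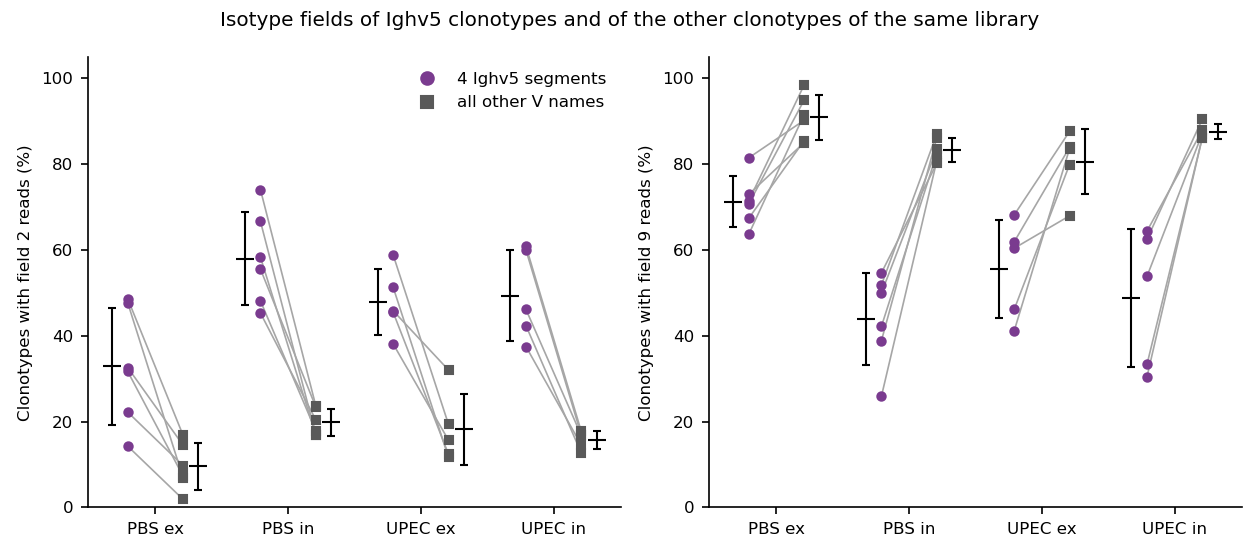
Percent of clonotypes with field 2 reads (left) and field 9 reads (right), for the 4 Ighv5 segments (circles) and all other V names (squares) of each library. Grey lines join the values of 1 library, and black bars are the mean with SD (n = 6 PBS, n = 5 UPEC); ex and in are the extravascular and intravascular fraction. Circles lie above squares for field 2 and below them for field 9 in all 22 libraries.

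Field 1, the IgA field, held 18 Ighv5 sequences in 7 clonotypes. IGHV5-4 had 11 of them, all in extravascular cells of PBS mouse 4, and IGHV5-17 had 7, spread over 5 libraries. IGHV5-6 and IGHV5-16 had 0. In extravascular libraries 0.664% ± 1.62 of Ighv5 clonotypes and 1.70% ± 2.32 of the others had field 1 reads (SD, n = 11; lower in 9 of 11 libraries, exact Wilcoxon test, adjusted p = 0.0746), and in intravascular libraries 1.20% ± 2.09 and 0.497% ± 0.320 (adjusted p = 0.642). The extravascular difference of -1.03 points passed among clonotypes of 1 sequence (-1.29, exact Wilcoxon test, adjusted p = 0.0335) and without Ighv3, Ighv11 and Ighv12 names (-2.82, adjusted p = 0.0456).

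Clonotypes of the 4 segments were small. Of 736, 667 (90.6%) consisted of 1 sequence, 2 had 5 or more and 0 had 20 or more, whereas 112 of the 6018 other clonotypes had 20 or more. Of those others, 4942 (82.1%) consisted of 1 sequence. The shares of 1 sequence were near each other in the extravascular fraction, 84.3% against 82.4%, but not in the intravascular fraction, 97.5% against 81.9%. In PBS extravascular libraries the 4 segments had the lower share, 80.2% against 84.9%. Mean size per library was 1.20 ± 0.149 sequences against 3.82 ± 1.44 for the other clonotypes in the extravascular fraction and 1.03 ± 0.0557 against 1.59 ± 0.477 in the intravascular fraction (SD, n = 11). It was lower in 11 of 11 libraries of each (exact Wilcoxon test, adjusted p = 0.00419). The size of the other clonotypes rested on the Ighv3, Ighv11 and Ighv12 names. Without them the differences shrank from -2.62 to -0.34 and from -0.57 to -0.0531 sequences and no longer passed (exact Wilcoxon test, adjusted p = 0.156 and 0.107).

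In PBS mice, extravascular Ighv5 clonotypes held 1.00, 1.18, 1.32, 1.46, 1.19 and 1.38 sequences on average, against 1.02, 1.00, 1.00, 1.00, 1.17 and 1.00 in the intravascular fraction. The extravascular value was higher in 5 of 6 mice, and the difference of 0.22 did not pass (exact Wilcoxon test, p = 0.0625, adjusted p = 0.3125 over 15 measures). By segment, 78.5% of extravascular IGHV5-4 clonotypes were of 1 sequence, as were 82.8% of IGHV5-6, 87.7% of IGHV5-17 and 93.1% of IGHV5-16. The intravascular percentages were 98.8, 97.8, 96.2 and 100.

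The largest Ighv5 clonotype, the largest of IGHV5-17 and the next of IGHV5-6 are shown by their CDR3 with flanking codons, capitals marking the nucleotides that match neither V, D nor J. The IGHV5-4 clonotype with IGHJ2 and IGHD1-1 came from extravascular cells of PBS mouse 4 and had 11 sequences and 108 reads, all in field 1. That of IGHV5-17 with IGHJ2 and IGHD1-1, in the extravascular library of PBS mouse 3, had 5 sequences and 35 reads. That of IGHV5-6 with IGHJ3 and IGHD4-1, in the extravascular library of PBS mouse 4, had 4 sequences, 50 reads and no inserted nucleotide.
IGHV5-4, 11 sequences: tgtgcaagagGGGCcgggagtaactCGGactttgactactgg
IGHV5-17, 5 sequences: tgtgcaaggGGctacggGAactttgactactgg
IGHV5-6, 4 sequences: tgtgcaagactaactgggtttgcttactgg

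Clonotypes of the 4 segments were shared about as rarely as the others. Of 722 distinct clonotypes, 711 (98.5%) were in 1 library, 11 in more than 1 library and 3 (0.416%) in more than 1 mouse, against 5786 of 5866 (98.6%) in 1 library and 46 (0.784%) in more than 1 mouse for all other V names. The 3 found across mice had 0 inserted nucleotides. An IGHV5-6 clonotype with IGHD1-1 and IGHJ2 was in 5 libraries of 4 mice: both libraries of PBS mouse 4, the intravascular library of PBS mouse 5 and the extravascular libraries of UPEC mice 1 and 3, with 1 sequence and 2 to 5 reads in each. The IGHV5-6 clonotype with IGHD4-1 shown among the largest was also in the intravascular library of PBS mouse 5. An IGHV5-17 clonotype with IGHD3-3 and IGHJ3 was in the intravascular libraries of PBS mice 1 and 4.
IGHV5-6 in 4 mice: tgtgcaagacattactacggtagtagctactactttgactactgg
IGHV5-17 in 2 mice: tgtgcaaggagggggtttgcttactgg

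The remaining 8 clonotypes were shared by the libraries of 1 mouse, 7 in UPEC mouse 4 and 1 in PBS mouse 4. In UPEC mouse 4 they were 13.7% of extravascular and 11.9% of intravascular Ighv5 clonotypes, against 8.20% and 7.20% of the other clonotypes. In 9 of the other 10 mice 0 Ighv5 clonotypes were shared. The other V names shared few there too, from 0% of extravascular clonotypes in PBS mouse 6 to 5.88% in UPEC mouse 1. The 8 clonotypes carried 2 to 14 inserted nucleotides, unlike the clonotypes found across mice. The IGHV5-17 clonotype with 14 is shown beside an IGHV5-4 clonotype with 4, each with 1 sequence per library. Whether these cells passed between the fractions or were sorted with the other was not tested.
IGHV5-17 in both fractions: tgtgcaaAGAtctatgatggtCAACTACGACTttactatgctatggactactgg
IGHV5-4 in both fractions: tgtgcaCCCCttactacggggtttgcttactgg

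CDR3 length set the segments apart in the intravascular fraction. Ighv5 clonotypes there had a mean CDR3 of 11.2 ± 0.361 amino acids against 12.1 ± 0.167 for the other clonotypes of the same library (SD, n = 11). They were shorter in 11 of 11 libraries, by at most 1.69 residues (exact Wilcoxon test, adjusted p = 0.00419 over 30 tests). The number of inserted nucleotides was lower too, 5.61 ± 0.594 against 6.46 ± 0.297, in 9 of 11 libraries (exact Wilcoxon test, adjusted p = 0.0183). Weighted by sequence the difference was -0.35 and did not pass (exact Wilcoxon test, adjusted p = 0.264). Against other clonotypes without Ighv3, Ighv11 and Ighv12 names both were lower in 11 of 11 libraries, with differences of -1.39 residues and -1.71 nucleotides. With at least 3 reads, in 6 libraries, the differences of -1.97 residues and -1.52 nucleotides did not pass (exact Wilcoxon test, adjusted p = 0.104 each). Pooled over libraries, mean length was 11.1 residues for IGHV5-4, 11.3 for IGHV5-6 and 11.01 for IGHV5-17, against 12.1 for the other clonotypes. IGHV5-16, with 22 clonotypes, was not shorter, at 12.2.

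In the extravascular fraction neither differed past the threshold. Length was 11.9 ± 0.376 against 11.9 ± 0.348 residues, and insertions were 6.01 ± 0.531 against 6.24 ± 0.716 (SD, n = 11; exact Wilcoxon test, adjusted p = 0.831 and 0.476). Weighted by sequence instead of clonotype, extravascular insertions were 1.48 higher in Ighv5 (exact Wilcoxon test, adjusted p = 0.0183). Joins without inserted nucleotides were fewer among extravascular Ighv5 clonotypes, 4.89% against 8.34% (exact Wilcoxon test, adjusted p = 0.0293, in 9 of 11 libraries). The difference of -3.44 points was -0.0166 without Ighv3, Ighv11 and Ighv12 names, and -2.24 without PBS mouse 1 (adjusted p = 0.0533 in the exact test). With each sequence counted once it was -17.6, lower in 11 of 11 libraries (exact Wilcoxon test, adjusted p = 0.00488). Among clonotypes of 1 sequence it was -2.39 and with at least 3 reads -3.997, neither passing (exact Wilcoxon test, adjusted p = 0.316 and 0.0732).

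Between the fractions of the same mouse, extravascular Ighv5 CDR3s were longer on average. In UPEC mice 1 to 5 they averaged 12.5, 12.1, 12.2, 11.7 and 11.7 residues against 11.5, 10.6, 10.6, 11.4 and 11.5, longer in 5 of 5 mice, with non-overlapping ranges. The difference was 0.94 residues (exact Wilcoxon test, p = 0.0625, the smallest that 5 pairs allow, adjusted p = 0.3125 over 15 measures). Inserted nucleotides were more numerous in 5 of 5 mice, by 0.66. In PBS mice length differed by 0.55 residues, longer in 5 of 6 mice (exact Wilcoxon test, p = 0.09375, adjusted p = 0.352), and insertions by 0.17. By segment, IGHV5-4 had 12.4 ± 2.64 residues over 107 extravascular and 11.1 ± 2.60 over 82 intravascular clonotypes (SD over clonotypes). IGHV5-6 had 11.9 ± 2.45 and 11.3 ± 2.49, and IGHV5-17 11.4 ± 2.61 and 11.01 ± 2.70. IGHV5-16 went the other way, with 11.6 ± 2.26 over 29 extravascular and 12.2 ± 1.90 over 22 intravascular clonotypes. Inserted nucleotides averaged 6.77 and 5.05 for IGHV5-4, 5.49 and 5.2 for IGHV5-6, and 6.52 and 6.24 for IGHV5-16. For IGHV5-17 they were fewer in the extravascular fraction, 5.77 and 6.07.

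**Figure D4:**
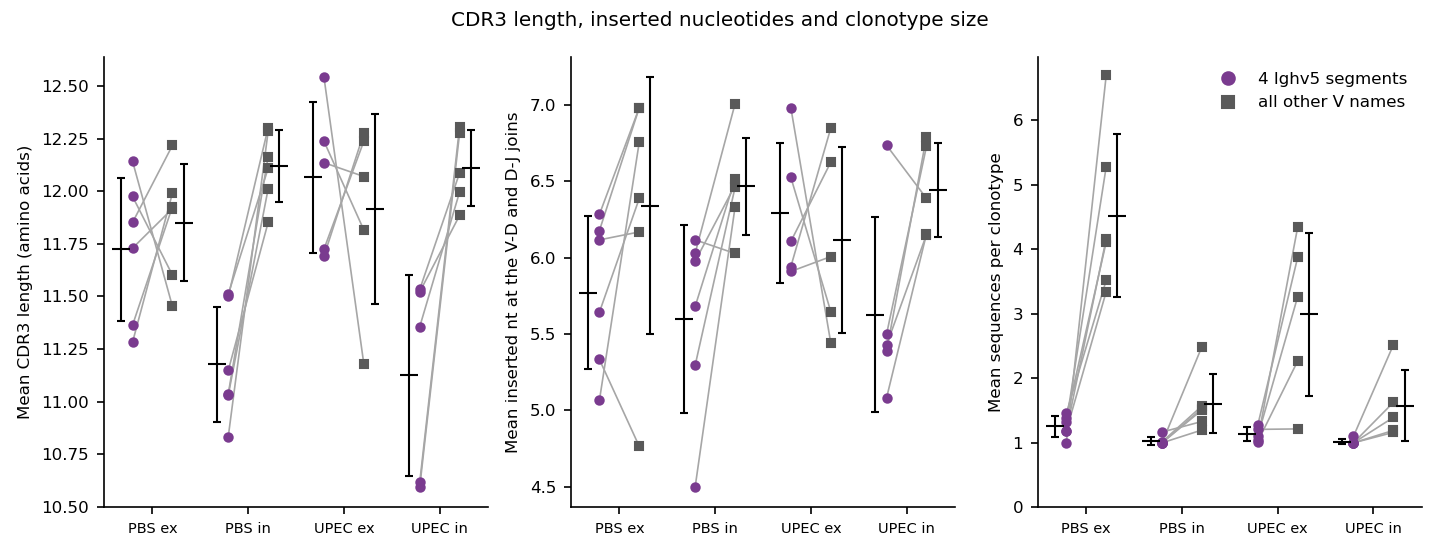
Mean CDR3 length in amino acids (left), mean inserted nucleotides (middle) and mean sequences per clonotype (right) of the 4 Ighv5 segments (circles) and all other V names (squares) in each library. Grey lines join the values of 1 library, and black bars are the mean with SD (n = 6 PBS, n = 5 UPEC); the 2 left axes do not start at 0. In the intravascular (in) groups all circles for length lie below their squares.

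Among the J partners, IGHJ2 was the most frequent, with 272 of 736 clonotypes (37.0%), followed by IGHJ4 with 179 (24.3%), IGHJ3 with 153 (20.8%) and IGHJ1 with 132 (17.9%). The other clonotypes also used IGHJ2 most, at 30.7%, with IGHJ1 at 25.7%, IGHJ4 at 24.6% and IGHJ3 at 18.9%. IGHJ2 was most frequent with IGHV5-6 (44.1%), and IGHJ3 was most frequent with IGHV5-4 (29.6%) and least with IGHV5-16 (9.80%, 5 of 51 clonotypes). IGHJ1 was less used by extravascular Ighv5 clonotypes than by the other clonotypes, 19.7% ± 6.28 against 29.2% ± 8.05 (SD, n = 11; lower in 9 of 11 libraries, exact Wilcoxon test, adjusted p = 0.0228). This difference of -9.49 points turned to 2.99 without Ighv3, Ighv11 and Ighv12 names. Among clonotypes of 1 sequence it was -7.73 and with at least 3 reads -9.31, neither passing (exact Wilcoxon test, adjusted p = 0.0696 and 0.104). With each sequence counted once it was -13.8 and passed (exact Wilcoxon test, adjusted p = 0.00837). Of the 706 Ighv5 clonotypes with an assigned D, 281 (39.8%) used the IGHD2 and 268 (38.0%) the IGHD1 family. In the other clonotypes these shares were 43.1% and 36.7%.

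In PBS mice no D or J share of Ighv5 clonotypes passed the test between fractions. In UPEC mice IGHD1 was more frequent in the extravascular fraction in 5 of 5 mice, 44.7% ± 8.82 against 31.0% ± 11.5 (SD, n = 5; exact Wilcoxon test, p = 0.0625, adjusted p = 0.3125). The compartment difference of IGHD2 was 15.2 points lower in UPEC than in PBS mice, from 8.66 to -6.59 (exact permutation test, p = 0.0238, adjusted p = 0.119 over 15 measures).

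Most members were close to germline. Of 815 sequences placed on their germline segment, 754 (92.5%) had 0 mismatches, 40 had 1 and 21 had 2 or more. Sequences that could not be aligned closely to the segment were not placed and are left out of these values. All of them were extravascular, where 453 of 466 were placed, against 362 of 362 intravascular sequences. All had field 9 reads, with 441 of 454 such sequences placed. Sequences without a mismatch were 85.2% of extravascular and 99.1% of intravascular sequences in PBS mice, and 92.9% and 95.3% in UPEC mice. Of nucleotides, 0.106% and 0.0176% were mismatched in PBS mice, and 0.0483% and 0.105% in UPEC mice. Single libraries weighed heavily in these values, so no direction between fractions is read from them. The extravascular library of PBS mouse 4 had 0.265% (others at most 0.107%). The intravascular library of PBS mouse 6 had 0.0940% (others at most 0.00578%). That of UPEC mouse 1, with 15 sequences, had 0.576% (others at most 0.0878%). By segment, sequences without a mismatch were 88.4% for IGHV5-4, 90.4% for IGHV5-16, 94.3% for IGHV5-17 and 94.7% for IGHV5-6. Mismatches made up 0.0108% of nucleotides in sequences with field 2, 0.0525% with field 9 and 1.64% with field 1. Only 3 of the 18 field 1 sequences had 0 mismatches, and the highest count, 23, was an IGHV5-17 sequence with field 1 reads in the intravascular library of UPEC mouse 1. These sums weight large clonotypes by their sequences, and no test was made.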

How the data were processed

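Igh repertoires of kidney B cells were measured in 22 libraries, an extravascular and an intravascular one from each of 6 PBS and 5 UPEC mice, so that the mouse pairs the libraries, and both come from the same animal. The authors filtered MiSeq read pairs by quality (QUASR), merged them, built a consensus per barcode, called the isotype from the constant region, kept sequences with at least 2 reads, and obtained V, D, J and CDR3 from IMGT/V-QUEST. Amplification used a multiplex of V primers, which can favour some V names. The deposited values are other than a normalized measure: nucleotide sequences, gene names, positions and, in each identifier, read numbers per isotype field. The genome build of this step is not given in the sources used here.

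Here each deposited sequence counted once. Compartments were compared by two-sided exact Wilcoxon tests over mice, PBS with UPEC by exact Mann-Whitney U tests, and changes of a difference by exact permutation tests. limma 3.58.1 (R 4.3.3) was run on log2 shares with a prior of 0.5 sequences scaled to the library. A V segment was tested where 3 or more libraries held 10 or more of its sequences. P values were adjusted by Benjamini-Hochberg over all segments or measures tested, at a threshold of 0.05. Libraries needed 5 Ighv5 clonotypes for a junction measure. Inserted nucleotides are those at the V-D and D-J joins, P nucleotides included, and 37 member sequences without a D were left out of them. Germline sequences are those of RefSeq and GENCODE vM21 for GRCm38.p6. All 4 members matched. Limits at 0 allow 3 counts. Python 3.11.15, numpy 2.4.6, pandas 2.3.3 and scipy 1.17.1 were used, the limma fit of the PBS fractions was tested on simulated data, and the exact tests were checked against scipy.

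The members, lists and tests were chosen with earlier results of these data known. The segments named besides the members are those in the same count or with the most similar compartment ratio, and the clonotypes are the largest, those shared between mice, and 2 shared between the fractions of UPEC mouse 4, chosen after their values were seen. Alternatives were weighting by reads or clonotype, merging variants of 1 nucleotide, other clonotype definitions, priors and filters, no mouse block, and leaving out each mouse.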

Additional observations from a re-analysis of the deposited data

Results flagged for a closer look

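Of 80 groups of libraries examined with Dixon's test, 14 had a library far from the others, where chance marks about 1 in 20. That rate does not apply where all other libraries had the same value, as in 4 of the 14, and the groups are not independent, since the 4 segments add up to their total. The extravascular library of UPEC mouse 1 was highest in 4 of them, with 23.8% of its sequences in the 4 Ighv5 segments together against 2.00% to 7.00% in the other UPEC mice. Its share was 9.84% for IGHV5-4 (others 0.0907% to 2.33%), 5.74% for IGHV5-6 (0.729% to 1.88%) and 3.28% for IGHV5-16 (0.0907% to 0.437%). This library was the smallest, with 244 sequences.

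The extravascular library of PBS mouse 1 was lowest in 4 groups. IGHV5-17 made up 0.0937% of its sequences (others 1.40% to 2.13%) and 0.615% of its clonotypes (4.28% to 6.07%), and the 4 segments together 2.15% of its clonotypes (11.2% to 16.4%). Of its 7 Ighv5 clonotypes, 16.7% of those with an assigned D used IGHD1, against 35.7% to 43.6%.

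The intravascular Ighv5 clonotypes of UPEC mouse 1 had a mean of 6.73 inserted nucleotides (others 5.08 to 5.50). Intravascular clonotypes held 1.17 sequences on average in PBS mouse 5 (others at most 1.02) and 1.10 in UPEC mouse 4 (others 1). Field 1, the IgA field, was found in 2.17% of extravascular Ighv5 clonotypes of PBS mouse 4, in 5.13% of those of UPEC mouse 5 and in 6.67% of intravascular ones of UPEC mouse 1, and in 0% in the other libraries of each group.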

How the results depend on the processing

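No member passed the adjusted test between fractions or treatments under any setting run. Of 231 values under alternatives other than a left-out mouse, 196 kept direction and side of the threshold, as did 455 of 496 with a mouse left out. The cause of the changes below was not tested.

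In PBS mice the extravascular minus intravascular sequence share of IGHV5-4 was 0.275 points weighted by reads, 0.593 with each clonotype once, 0.0798 with variants of 1 nucleotide merged and 0.694 with at least 3 reads. At least 3 reads gave 0.0670 for IGHV5-6 and 0.478 for IGHV5-17 by sequence, and 1.74 and 2.98 by clonotype. With clonotypes defined by CDR3 amino acids IGHV5-17 was at 0.0841. Joins without insertion differed by 1.48 without sequences of more than 1 V name and by 0.265 with each sequence once, and field 1 by 1.65 with each sequence once. The setting without such V names gave no value for IGHV5-6.

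limma called 0 PBS segments weighted by reads, 2 with variants merged, 0 with no filter and 3 with median centring, and its IGHV5-4 estimate was 0.20 with each clonotype once and 0.46 with median centring. With no replicate block, that is without pairing by mouse, it called 7 of 17 in PBS and 0 of 17 in UPEC mice. IGHV5-6 then had an adjusted p of 0.108 in limma and of 0.0859 in the unpaired exact test, and no member's call changed.

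Against the other clonotypes, settings chosen after seeing the data ended some calls and made others. Without Ighv3, Ighv11 and Ighv12 names, intravascular IGHD1 (-11.4 points, adjusted p = 0.0126) and IGHD4 (4.83, adjusted p = 0.00977) passed, each in 10 of 11 libraries by the exact Wilcoxon test, as did extravascular field 1 (-2.82). With clonotypes of 1 sequence, extravascular differences were 0.0565 residues, -2.39 points without insertion and -7.73 for IGHJ1. The calls for joins without insertion and IGHJ1 then ended (exact Wilcoxon test, adjusted p = 0.316 and 0.0696). With each sequence once they were 0.0383 residues, 1.48 inserted nucleotides and -17.6 points without insertion, and -0.350 inserted nucleotides intravascularly. Without Ighv3, Ighv11 and Ighv12 names they were -0.0166 points without insertion, 2.99 for IGHJ1, and -0.335 and -0.0531 sequences per clonotype in the extravascular and intravascular fractions. With at least 3 reads they were -3.997 points without insertion and -9.31 for IGHJ1, neither passing (exact Wilcoxon test, adjusted p = 0.0732 and 0.104). The intravascular differences with at least 3 reads were -1.97 residues, -1.52 inserted nucleotides, -0.518 sequences, 26.0 points for field 2 and -31.8 for field 9. Only 6 intravascular libraries then remained, whose smallest p is 0.03125.

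With each mouse left out in turn, the PBS sequence difference ranged from -0.677 to 0.111 for IGHV5-4. In UPEC mice it ranged from -0.109 to 2.51 for IGHV5-4, -0.629 to 1.13 for IGHV5-6 and -0.345 to 0.516 for IGHV5-17. The PBS clonotype difference ranged from -0.581 to 0.231 for IGHV5-6 and -0.744 to 1.21 for IGHV5-17, and UPEC minus PBS of extravascular IGHV5-4 from -0.0276 to 2.41. In PBS mice the ranges were -0.118 to 0.386 inserted nucleotides, -2.57 to 0.657 points without insertion, -0.482 to 3.63 for IGHJ1, -5.44 to 0.921 for IGHJ2 and -3.07 to 2.85 for IGHD1. The UPEC field 2 difference ranged from -5.96 to 1.69. Against the other extravascular clonotypes, length ranged from -0.137 to 0.0701 and joins without insertion from -3.88 to -2.24. The limma estimate of IGHV5-4 ranged from -1.13 to 0.13, its PBS count from 0 (without PBS mouse 1, 3 or 4) to 5 and its extravascular count from 0 to 1 (without UPEC mouse 3 or PBS mouse 6). Depth limits IGHV5-16 most, with 53 sequences in 22 libraries, and libraries with few Ighv5 clonotypes give coarse percentages.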
